A study of Mus musculus with 6 samples.

Results

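The mitochondrial ribosomal protein genes are the 76 genes whose symbol begins with Mrpl or Mrps and a number, of 23235 genes in the authors' deposited table. They comprise 47 Mrpl genes, named for the large subunit, and 29 Mrps genes, named for the small subunit. All 76 had a test in that table, so none was left out for low signal.

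The RNA came from primary macrophages differentiated out of bone marrow from GRdim homozygous mice. GRdim is a glucocorticoid receptor mutant with impaired dimerization. Of the 6 samples, 3 form the LPS+Dex group, treated overnight with 1 µM dexamethasone (Dex, a synthetic glucocorticoid) and then for 6 h with lipopolysaccharide (LPS, a bacterial cell wall component), and 3 form the LPS group, given LPS for 6 h without Dex. All cells of both groups carry the mutant receptor, were grown with medium conditioned by L-929 fibroblasts and received LPS. Macrophages with a wild-type receptor or left without LPS are not analysed here. The labels give neither the age of the mice nor say if samples are from different animals or cultures, so the deposited error may be technical.

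The mitochondrial ribosome translates the few proteins that mitochondrial DNA encodes, which are core subunits of the respiratory chain and the ATP synthase. Its RNAs come from mitochondrial DNA, while its proteins are encoded in the nucleus, made in the cytosol and imported. Many of them have a bacterial homolog and others are found only in mitochondrial ribosomes. Promoters of such nuclear genes often hold sites for nuclear respiratory factor NRF1 and for ETS factors such as GABPA. Setting LPS+Dex against LPS addresses which of these genes differed with the hormone in cells that carry this receptor mutant.

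Each level, fold change and q-value comes from the authors' deposited table, except where a value is said to be centred, to include a pseudocount or to have the trend on level removed. The table holds 1 FPKM value (fragments counted per kilobase of transcript, relative to the size of the library) per gene and group. A gene was called when the deposited q was under 0.05. Values per sample were not in the table used here, so neither a spread over samples nor an overlap of the groups can be given. An implied standard error (SE) was taken as the log2 fold change divided by the deposited test statistic, and 95% intervals are 1.96 implied SE to each side. The depth of the libraries is unknown. The macrophage markers were abundant, with a sum of 3684 FPKM in LPS+Dex and 3421 FPKM in LPS over 8 rows, with Lyz2 listed at 0 in both groups under a status of HIDATA, which marks a locus that was not quantified. The 3 T cell, 3 B cell and 3 erythroid markers reached at most 0.0147 FPKM in either group. Of the neutrophil markers with a row, Camp was the highest at 1.16 FPKM in LPS+Dex and 1.85 FPKM in LPS, and of the stromal markers Dcn was the highest at 0.703 FPKM in LPS+Dex and 0.389 FPKM in LPS. Camp was called lower and Dcn higher, and the part of such cells in the results below was not tested. In bulk RNA, fewer cells of a type and less RNA per cell cannot be told apart.

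Promoters of the called genes are shown first, so that the calls can be read beside the letters that NRF1 and ETS factors bind. RefSeq promoters (build GRCm38, windows of 300 bases that end 50 bases after the listed start) were matched by symbol for 67 of the 76 genes. The NRF1 letters, GCGCA, then any base, then GCGC, on either strand, were in 12 of the 67 promoters (17.9%), against 10.9% of 8408 promoters of tested genes and 4.78% of 27025 promoters of all genes. The ETS letters, CCGGAAGT on either strand, were in 11 of the 67 (16.4%), against 8.79% of promoters of tested genes and 4.0% of all promoters. The letters AAGATGGC, part of the YY1 site, were in 12 of the 67 (17.9%), against 4.95% of promoters of tested genes and 2.88% of all promoters. The E-box letters, CACGTG, were in 5 of the 67 (7.46%), against 10.5% of promoters of tested genes and 7.24% of all promoters. In 55 promoters of cytosolic ribosomal protein genes, the shares were 7.27% for NRF1, 20% for ETS, 7.27% for YY1 and 7.27% for the E-box. No match of one motif overlapped a match of another in these 67 promoters.

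Of the 5 genes called higher in LPS+Dex, all with a promoter in the reference, 3 held the NRF1 letters (Mrpl45, Mrpl39 and Mrpl44) and 1 held the ETS letters (Mrpl43). Of the 7 genes called lower that had a promoter, none held the NRF1 letters and 4 held the ETS letters (Mrpl27, Mrpl33, Mrpl3 and Mrps18c). No promoter was matched for the other falls, Mrpl13, Mrps28 and Mrpl54, of which Mrpl13 was the largest change among the 76 genes. Among 55 genes not called, 9 held the NRF1 letters and 6 the ETS letters. All 4 of these falls with the ETS letters lost their call when the trend of change on level, described further on, was removed. By the calls after that removal, 10 genes were higher, of which 4 held the NRF1 letters and 3 the ETS letters (Mrpl43, Mrpl18 and Mrpl52), and the 1 lower gene with a promoter held neither. By the deposited calls, the YY1 letters were in 0 of 5 higher, 0 of 7 lower and 12 of 55 uncalled genes. The E-box letters were in 0, 1 and 4 of them. Promoters of all tested genes were not split by call. These counts are a description of few promoters, chosen by their calls, and carry no test. The 160 bases before the start are printed in lower case, 5′ to 3′, for genes of both kinds whose match lies there, with the NRF1 or ETS letters in capitals.
Mrpl45, chr11:97315556-97315715, plus strand: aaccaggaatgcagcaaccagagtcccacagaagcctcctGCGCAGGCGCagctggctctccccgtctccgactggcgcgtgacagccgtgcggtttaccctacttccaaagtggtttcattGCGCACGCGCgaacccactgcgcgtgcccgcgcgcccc
Mrpl39, chr16:84735245-84735404, minus strand: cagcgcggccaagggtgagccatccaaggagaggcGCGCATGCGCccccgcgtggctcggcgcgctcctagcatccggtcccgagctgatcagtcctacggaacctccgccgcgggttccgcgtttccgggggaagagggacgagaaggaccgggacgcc
Mrpl44, chr1:79775858-79776017, plus strand: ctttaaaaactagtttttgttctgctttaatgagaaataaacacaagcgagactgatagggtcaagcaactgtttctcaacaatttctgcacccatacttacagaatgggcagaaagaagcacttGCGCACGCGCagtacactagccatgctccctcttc
Mrpl43, chr19:45006443-45006602, minus strand: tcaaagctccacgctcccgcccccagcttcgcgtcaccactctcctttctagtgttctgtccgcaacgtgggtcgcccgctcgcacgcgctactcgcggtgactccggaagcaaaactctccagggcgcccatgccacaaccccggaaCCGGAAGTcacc
Mrpl27, chr11:94653631-94653790, plus strand: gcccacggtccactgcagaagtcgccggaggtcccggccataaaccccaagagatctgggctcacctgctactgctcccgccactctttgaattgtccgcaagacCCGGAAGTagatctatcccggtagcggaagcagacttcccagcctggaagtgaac
Mrpl3, chr9:105053108-105053267, plus strand: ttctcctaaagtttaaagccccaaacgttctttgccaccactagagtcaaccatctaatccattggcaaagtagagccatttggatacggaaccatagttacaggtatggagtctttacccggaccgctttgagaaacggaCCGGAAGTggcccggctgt
Mrps18c, chr5:100798599-100798758, plus strand: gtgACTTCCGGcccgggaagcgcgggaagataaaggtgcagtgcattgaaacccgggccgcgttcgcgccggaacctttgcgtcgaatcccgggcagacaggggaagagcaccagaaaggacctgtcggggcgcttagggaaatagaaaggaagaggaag
Mrpl45, the gene with the largest rise, held 2 NRF1 matches in this stretch and a further one just after the start. Mrpl43, also called higher, held the ETS letters. The first 4 sequences belong to genes called higher in LPS+Dex and the last 3 to genes called lower.

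Levels of the mitochondrial ribosomal protein genes in the authors' deposited table were moderate and almost equal between the groups. Their median was 15.1 FPKM in LPS+Dex and 14.5 FPKM in LPS, and their sum was 1531 FPKM in LPS+Dex and 1584 FPKM in LPS, a log2 ratio of −0.050. The sum made up 0.389% of all FPKM in the table in LPS+Dex and 0.378% in LPS. The mean of the groups ran over an 85.9-fold range, with 9 genes under 5 FPKM and 6 above 50 FPKM. Mrpl52, which encodes a large subunit protein without a bacterial homolog, was the most abundant at 140.1 FPKM in LPS+Dex and 141.8 FPKM in LPS. Next came Mrpl30, a homolog of bacterial L30, at 69.4 FPKM in LPS+Dex and 68.0 FPKM in LPS. The small subunit genes with the highest levels were Mrps18c, at 62.0 FPKM in LPS+Dex and 69.8 FPKM in LPS, and Mrps21, at 62.3 FPKM in LPS+Dex and 63.5 FPKM in LPS. At the low end stood Mrpl41, with 1.78 FPKM in LPS+Dex and 1.498 FPKM in LPS, Mrps25, with 2.37 FPKM in LPS+Dex and 2.26 FPKM in LPS, Mrpl17, with 3.07 FPKM in LPS+Dex and 2.82 FPKM in LPS, and Mrpl19, with 4.07 FPKM in LPS+Dex and 4.48 FPKM in LPS. FPKM is scaled by the assumed transcript length, so these levels can be ordered between genes only as far as that length is right.

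**Figure D1:**
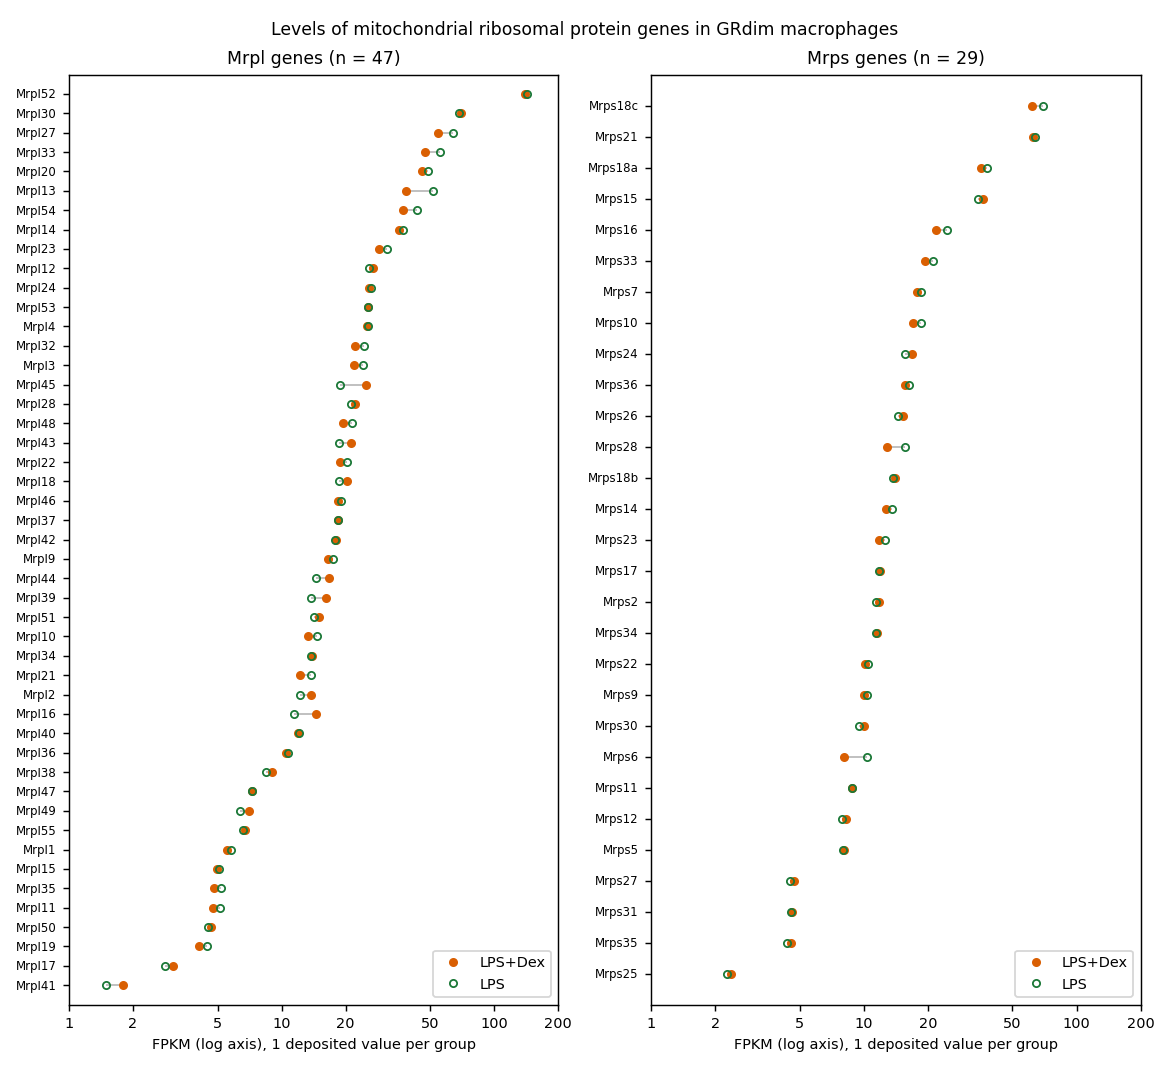
FPKM (log axis) of each of the 47 Mrpl genes and 29 Mrps genes, with 1 deposited value for LPS+Dex (filled) and 1 for LPS (open) joined by a line. The points of most genes nearly coincide, while Mrpl45 and Mrpl16 lie higher in LPS+Dex and Mrpl13, Mrps6 and Mrps28 lie lower.

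In the authors' deposited table, 5 of the 76 genes were called higher in LPS+Dex (6.58%, against 17.7% of all 11755 tested genes) and 10 were called lower (13.2%, against 25.2%). The other 61 were not called. In all, 19.7% of these genes were called, against 42.9% of all tested genes. No gene changed by 1.5-fold or more, against 12.8% of all tested genes. The median log2 fold change was −0.019, with quartiles of −0.11 and 0.066, beside a median of −0.011 with quartiles of −0.19 and 0.17 over all tested genes. The median size of the change, without its sign, was 0.079 against 0.18 over all tested genes, while the median implied SE was 0.068 against 0.071.

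Genes of like level gave a similar background. The 2098 other tested genes between the quartiles of the mitochondrial ribosomal genes in mean FPKM were called in 46.7% of cases, 19.1% higher and 27.6% lower, with a median log2 fold change of −0.023. The median size of their change was 0.12, also larger than 0.079, although their median implied SE of 0.056 was smaller than 0.068. With other genes weighted to the levels of the 76 genes in steps of doubling mean FPKM, 47.6% were called, a share that would be 36.2 of 76 genes. Between 4 and 8 FPKM, none of 12 mitochondrial ribosomal genes was called, against 42.2% of other genes. Between 8 and 16 FPKM, 7 of 27 were called, against 44.5%, and between 16 and 32 FPKM, 3 of 22, against 50.2%. Between 32 and 64 FPKM, 4 of 9 were called, all of them lower, against 54.3%, of which 41.2% were lower. These genes share the libraries and are not independent of each other, so the shares are given without a test.

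**Figure D2:**
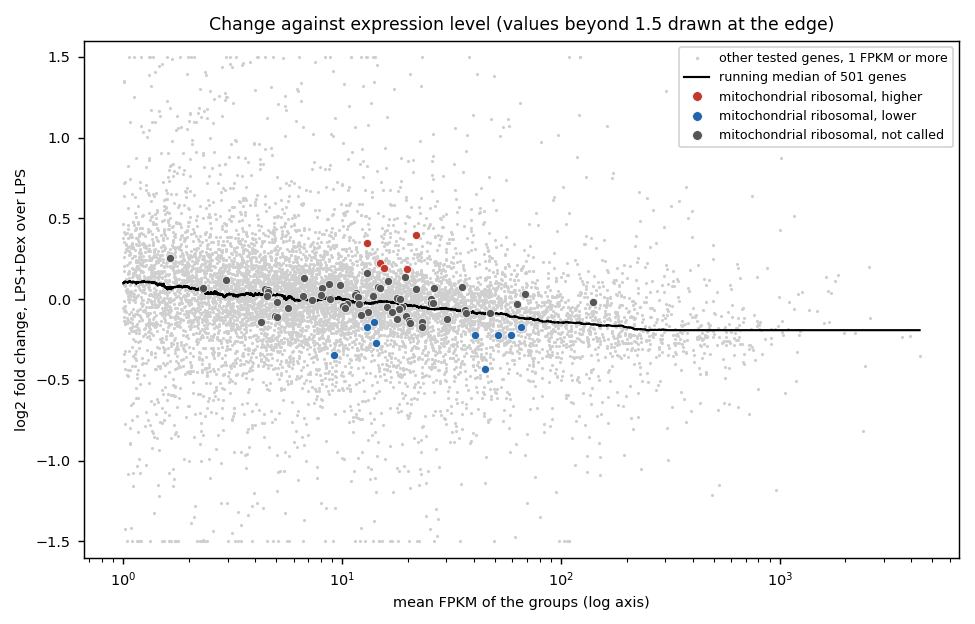
Log2 fold change of LPS+Dex over LPS against the mean FPKM of the groups (log axis) for tested genes with at least 1 FPKM (grey), the mitochondrial ribosomal protein genes (coloured by call) and the running median over tested genes of nearest level (line). The 76 genes lie between −0.43 and 0.40, inside the spread of the grey points, and the line falls as the level rises.

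A missed threshold does not show that a gene did not differ, so the intervals bound the changes. The 95% interval lay within a 1.5-fold change in both directions for all 76 genes, against 71.5% of all tested genes and 88.8% of other genes of like level. It lay between a fall of 20% and a rise of 25% for 64 of the 76 (84.2%), against 44.2% of all tested genes and 66.9% of other genes of like level. Mrpl52 had a log2 fold change of −0.017 (interval −0.12 to 0.090). For Mrps21, a homolog of bacterial S21, the change was −0.028 (interval −0.16 to 0.10). Mrpl20, a homolog of bacterial L20, stood at −0.088 (interval −0.20 to 0.027), with 45.9 FPKM in LPS+Dex and 48.8 FPKM in LPS. Mrpl12, which belongs to the flexible stalk that recruits translation factors, had 26.9 FPKM in LPS+Dex and 25.6 FPKM in LPS, a change of 0.068 (interval −0.051 to 0.19). Mrps12, which contributes to the decoding centre, had 8.27 FPKM in LPS+Dex and 7.88 FPKM in LPS, a change of 0.068 (interval −0.14 to 0.27). Of the 61 genes not called, 7 had an unadjusted p under 0.05, among them Mrpl41 (log2 0.25, q = 0.0600) and Mrps16 (log2 −0.17, q = 0.0562). Mrpl48 had the widest interval among genes not called with at least 16 FPKM, from −0.41 to 0.11, at 19.4 FPKM in LPS+Dex and 21.5 FPKM in LPS.

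**Figure D3:**
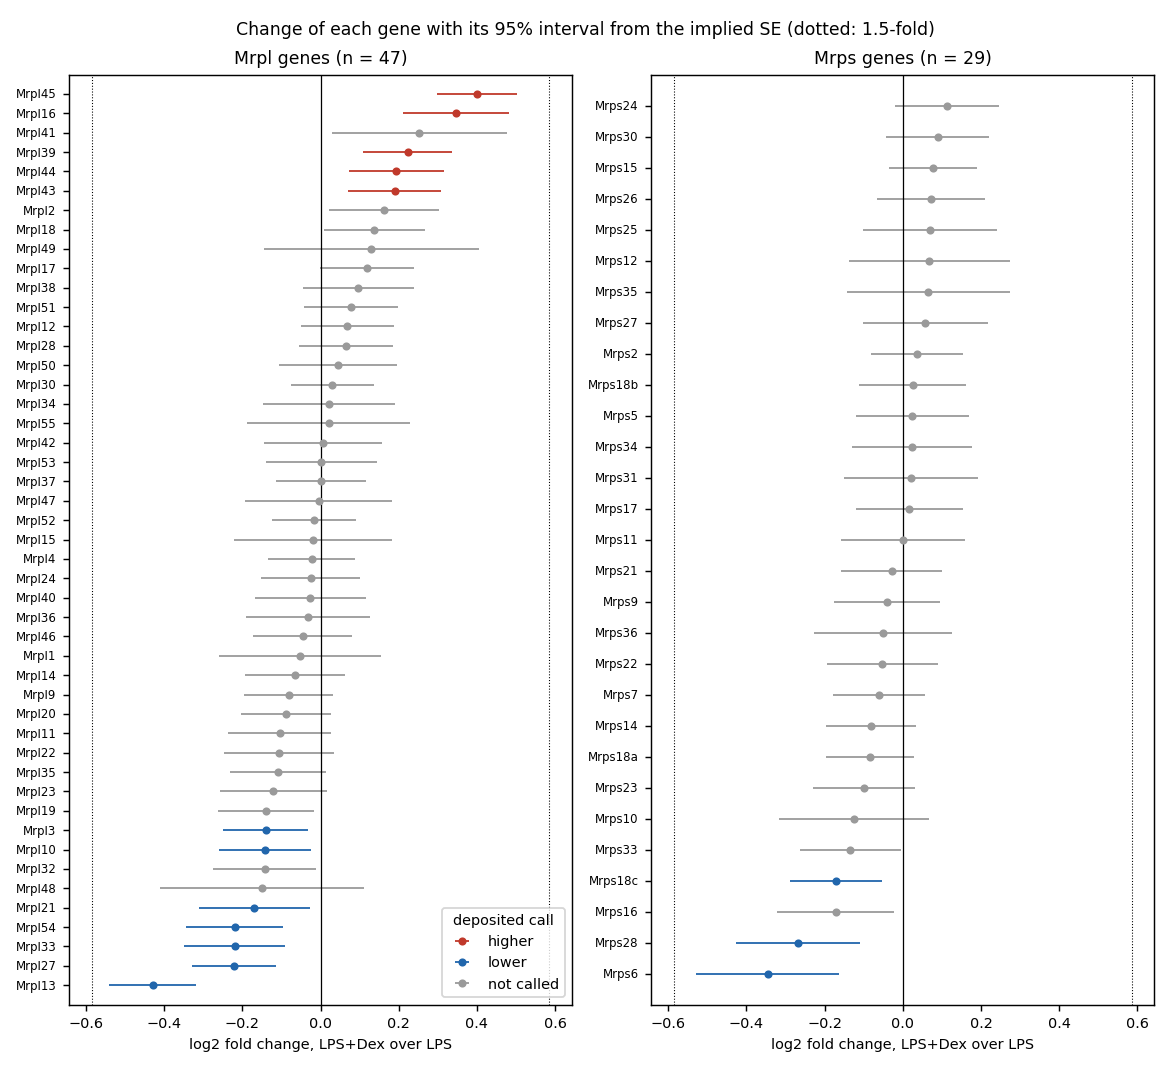
Log2 fold change of LPS+Dex over LPS for each Mrpl and Mrps gene, with its 95% interval from the implied SE, coloured by the deposited call, and dotted lines at 1.5-fold. Every interval lies inside the dotted lines, and the 5 genes called higher are all Mrpl genes.

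The 5 genes called higher in the authors' deposited table all encode large subunit proteins. Mrpl45, which holds the ribosome at the inner membrane near the exit of the nascent chain, had 24.9 FPKM in LPS+Dex and 18.8 FPKM in LPS (log2 0.40, implied SE 0.052, q = 1.06e-13). It lies on chromosome 11 at 97177029 to 97191234 (mm9, as the table lists it) and was the largest rise among the 76 genes, a 1.32-fold change. Mrpl16, a homolog of bacterial L16 (chromosome 19, 11844904 to 11849436, mm9), had 14.5 FPKM in LPS+Dex and 11.4 FPKM in LPS (log2 0.35, implied SE 0.070, q = 3.67e-06). Mrpl39, whose protein resembles part of a tRNA synthetase, rose to 16.1 FPKM in LPS+Dex, against 13.8 FPKM in LPS (log2 0.22, implied SE 0.058). Mrpl44, which has a ribonuclease III fold and is mutated in a human infantile cardiomyopathy, rose to 16.6 FPKM in LPS+Dex, against 14.5 FPKM in LPS (log2 0.19, implied SE 0.061). Mrpl43, another protein without a bacterial homolog, rose to 21.2 FPKM in LPS+Dex, against 18.6 FPKM in LPS (log2 0.19, implied SE 0.061).

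Among the 10 genes called lower in the authors' deposited table, 7 encode large and 3 small subunit proteins. Mrpl13, a homolog of bacterial L13 (chromosome 15, 55365649 to 55388867, mm9), had 38.4 FPKM in LPS+Dex and 51.7 FPKM in LPS (log2 −0.43, implied SE 0.057, q = 4.00e-13). It was the largest change in either direction, to 0.742 of the LPS level. Mrps6, a homolog of bacterial S6 (chromosome 16, 92058566 to 92112472, mm9), had 8.10 FPKM in LPS+Dex and 10.3 FPKM in LPS (log2 −0.35, implied SE 0.094, q = 0.000821). Its listed locus is that of Slc5a3 too, a myo-inositol transporter gene, which stood at 0.0925 FPKM in LPS+Dex and 0.111 FPKM in LPS. Mrps28, which is counted as the S1 homolog of the mitochondrial ribosome, fell to 12.9 FPKM in LPS+Dex, against 15.5 FPKM in LPS (log2 −0.27, implied SE 0.081).

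The other falls were smaller. Mrpl27, whose bacterial homolog reaches towards the peptidyl transferase centre, fell to 54.6 FPKM in LPS+Dex, against 63.7 FPKM in LPS (log2 −0.22, implied SE 0.055). Mrpl33, a homolog of bacterial L33, fell to 47.5 FPKM in LPS+Dex, against 55.3 FPKM in LPS (log2 −0.22, implied SE 0.066). Mrpl54, the called fall without a bacterial homolog, fell to 37.3 FPKM in LPS+Dex, against 43.5 FPKM in LPS (log2 −0.22, implied SE 0.064). Mrps18c, the homolog of bacterial S18 in the small subunit, fell by 0.17 on the log2 scale (implied SE 0.060), and its paralogs Mrps18a and Mrps18b were not called (log2 −0.084 and 0.025). Mrpl21 (log2 −0.17, q = 0.0446), Mrpl10 at the base of the stalk (log2 −0.14, q = 0.0420) and Mrpl3 near the peptidyl transferase centre (log2 −0.14, q = 0.0275) were the smallest called falls. Of the 15 called changes, 11 were smaller than a fall of 20% or a rise of 25%.

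In the authors' deposited table the typical change declined with the level of a gene, and the balance of rises and falls among the mitochondrial ribosomal genes depended on the scaling. With all changes centred on −0.026 on the log2 scale (the median of tested genes with at least 1 FPKM), and no term for level, 9 of the 76 genes were higher and 7 lower. The shares of all tested genes under this centring are not given, so these counts cannot be read as particular to the 76 genes. Over the levels of these 76 genes the running median of all tested genes, at like mean FPKM, was 0.070 at its highest, among scarce genes, and −0.16 at its lowest, among abundant ones. With that running median taken off each change, 10 of the 76 genes were higher (13.2%, against 18.4% of all tested genes) and 4 were lower (5.26%, against 21.2%), 18.4% in all against 39.6%. So the split turned round under either scaling, while with the trend removed the share called was 18.4% beside the deposited 19.7%. Of the 15 deposited calls, 8 were kept, which were all 5 rises and the falls of Mrpl13, Mrps6 and Mrps28. The other 7 falls were lost, and 5 rises (Mrpl2, Mrpl18, Mrps15, Mrpl30 and Mrpl52) and 1 fall (Mrpl19) were new. The median change was then 0.014.

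By structure, 49 of the 76 proteins belong to the large subunit, including Mrps18a and Mrps30, 26 belong to the small subunit, and Mrps36 is now assigned to the alpha-ketoglutarate dehydrogenase complex. In the authors' deposited table, where 17.7% of all tested genes were higher and 25.2% lower, 5 of the 49 large subunit genes were higher (10.2%) and 7 lower (14.3%), with a median log2 fold change of −0.020 and a sum of 1090.3 FPKM in LPS+Dex and 1126 FPKM in LPS. Of the 26 small subunit genes, none was higher and 3 were lower (11.5%), with a median of 0.0087 and a sum of 424.9 FPKM in LPS+Dex and 442 FPKM in LPS. Within the large subunit, of the 30 proteins with a bacterial homolog 1 was higher (3.33%) and 6 lower, with a median of −0.059, and of the 18 without one 4 were higher (22.2%) and 1 lower (5.56%), with a median of 0.061. Their levels were alike, with median means of 18.2 and 16.7 FPKM. With the trend on level removed, the medians were −0.038 and 0.083, with 4 higher and 2 lower of the 30 and 5 higher and none lower of the 18. Within the small subunit, of the 16 with a bacterial homolog none was higher and 3 were lower, with a median of −0.034, and of the 9 without one none was called, with a median of 0.024. The difference between these classes was not tested.

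Mitochondrial ribosomal proteins that carry other symbols gave no call. None of 7 was called in the authors' deposited table, against 42.9% of all tested genes. The median log2 fold change of the 7 was 0.034. Dap3, a GTP-binding protein of the small subunit, had 3.39 FPKM in LPS+Dex and 3.18 FPKM in LPS (log2 0.093, q = 0.355). Ptcd3, a pentatricopeptide repeat protein of the small subunit, had 5.67 FPKM in LPS+Dex and 5.59 FPKM in LPS. Chchd1 had 34.9 FPKM in LPS+Dex and 37.9 FPKM in LPS (log2 −0.12, q = 0.135), and Aurkaip1 had 24.96 FPKM in LPS+Dex and 25.8 FPKM in LPS. In the large subunit, Gadd45gip1 had 5.27 FPKM in LPS+Dex and 4.75 FPKM in LPS (log2 0.15, q = 0.433). Ict1, a peptidyl-tRNA hydrolase built into the ribosome, had 11.6 FPKM in LPS+Dex and 11.3 FPKM in LPS, and Mrp63 had 3.81 FPKM in LPS+Dex and 3.71 FPKM in LPS.

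Genes that work with the mitochondrial ribosome were set beside the 17.7% higher and 25.2% lower calls over all tested genes in the authors' deposited table. Of 20 tested genes for its assembly and rRNA modification, 6 were higher (30%) and 1 lower (5%), with a median log2 fold change of 0.11. Rbfa, a factor that matures the small subunit, had 5.54 FPKM in LPS+Dex and 4.12 FPKM in LPS (log2 0.43, implied SE 0.093). Nsun4, an rRNA methyltransferase gene, fell to 2.11 FPKM in LPS+Dex, against 2.79 FPKM in LPS (log2 −0.40, implied SE 0.079). Of 13 translation factors 2 were higher (15.4%), led by Guf1, a relative of bacterial LepA (log2 0.33, implied SE 0.082, and 0.22 with a pseudocount of 1), and none was lower, while the elongation factor gene Tufm stood at 20.6 FPKM in LPS+Dex and 20.7 FPKM in LPS. Of 20 mitochondrial tRNA synthetase and amidotransferase genes, 3 were higher (15%) and 1 lower (5%). The shares called higher among factors and synthetases were below that of all tested genes. These genes were scarce, with median means of 2.88 FPKM for assembly, 3.47 FPKM for factors and 1.69 FPKM for synthetases, and scarce genes tended to be higher. With the trend on level removed, assembly had 5 higher (25%) and 1 lower (5%). Factors then had 2 higher (15.4%) and none lower, and synthetases 2 higher (10%) and none lower. Of all tested genes, 18.4% were then higher and 21.2% lower.

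The cytosolic ribosome and the respiratory chain stood beside these genes in the authors' deposited table. Of 76 cytosolic ribosomal protein genes 73 were lower (96.1%, against 25.2% of all tested genes) and none higher. Their median log2 fold change was −0.23, against the median of −0.019 for the mitochondrial ones. Of 77 tested genes of the respiratory chain and ATP synthase, 41 were lower (53.2%) and 1 higher (1.3%, against 17.7%), with a median of −0.14. Both lists are far more abundant, with median means of 439 and 67.5 FPKM against 14.7 FPKM for the mitochondrial ribosomal genes. With the trend on level removed, 11 of the 76 cytosolic genes were lower and none higher. The respiratory list then had 3 higher and 3 lower, 7.79% called against 18.4% of the mitochondrial ribosomal genes. The running median was taken over all tested genes, both lists included, so it took off part of any change that these abundant genes share. These counts therefore do not show that the lists changed no more than other genes. The difference between the lists was not tested.

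**Figure D4:**
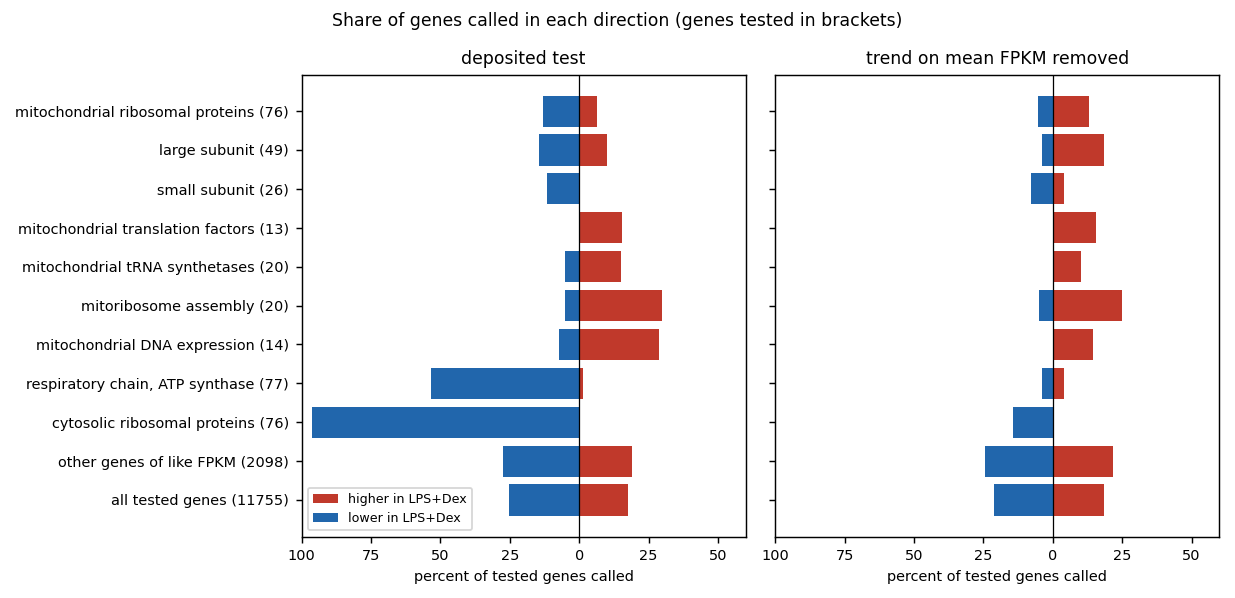
Percent of tested genes called lower (to the left of 0) and higher (to the right of 0) in LPS+Dex for each list, with the genes tested in brackets, by the deposited test (left panel) and after removal of the trend on mean FPKM (right panel). The bar of 96.1% lower for cytosolic ribosomal proteins shrinks to 14.5%, where the trend was drawn partly from these genes themselves. Mitochondrial ribosomal proteins go from mostly lower to mostly higher calls.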

How the data were processed

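RNA from 6 samples was sequenced as stranded paired-end libraries, per the labels' protocols. The authors deposited 1 table with 1 FPKM value per gene and group, a log2 fold change, a test statistic (a score that is negative where LPS+Dex is higher), a p-value and a q-value, per the file headers. The submitters' processing notes name CASAVA, TopHat 1.4.1, Cufflinks 2.0.2 and build mm9, without roles. How replicates were combined, how libraries were scaled, the annotation and the use of strand in counting were not stated there or in the labels. Reads shared with pseudogene copies of these genes cannot be told apart.

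With Python 3.11.15, the deposited p was checked to be the normal tail of the statistic, for the 11745 tested genes above 0 in both groups, and q its Benjamini-Hochberg adjustment over 11755 genes. No test over samples could be run. In the trend correction, the running median of the tested genes nearest in mean FPKM was taken off, and the change was tested again with the implied SE and adjusted over all tested genes. This step was tested on simulated data in which only a small part of the genes was changed. In the deposited calls, by contrast, 57.9% of other tested genes between 128 and 256 FPKM were lower and 9.76% higher. The simulation therefore cannot show how the step acts where many genes of like level change together. Genes set to be named, among mitochondrial ribosomal genes with at least 1 FPKM, were the 8 largest called changes each way. The 4 highest and lowest means and the 4 most abundant uncalled genes were added. Per other list, with no minimum, these were the largest called change each way and the most abundant uncalled gene. All 7 proteins under other symbols were included. Of genes so set in other lists, Ssbp1, Mterfd1, Hcfc1, Rps27, Rpl37, Ndufc2, Ndufs4 and Cox6a1 are not described in the text. Other genes were named after their values were seen. The members and lists were chosen with earlier results of these data known.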

Additional observations from a re-analysis of the deposited data

How the results depend on the processing

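No paired analysis was possible because the table holds 1 value per group, and for the same reason no replicate could be left out. Of the 5 higher and 10 lower calls among the mitochondrial ribosomal genes, 2 higher and 1 lower passed Bonferroni adjustment. A q under 0.1 gave 8 higher, a q under 0.01 gave 6 lower, and a change of at least 1.5-fold left 0 higher and 0 lower. Centring on the median gave 9 higher and 7 lower. Removing the trend on mean FPKM gave 10 higher and 4 lower, with 9 higher and 2 lower in the large subunit (4 higher and 2 lower with a bacterial homolog, 0 lower without) and 1 higher in the small subunit, the one with a bacterial homolog. It gave 2 higher and 0 lower for mitochondrial DNA expression, 0 lower for synthetases, 11 lower for cytosolic ribosomal proteins, and 3 higher and 3 lower for the respiratory chain. Under it Mrpl52 stood at 0.14 and was called higher, and Lars2 at 0.016. At such levels the trend was drawn partly from cytosolic ribosomal protein genes. The cause of these changes was not tested. The median change of the 76 genes moved by less than the median implied SE under the 10 alternatives run, but was above 0 when centred (0.0071) or with the trend removed (0.014). That SE is the error of a single gene, not of this median. Limits to rows with 1 symbol or at least 1 FPKM, and lifting the filter on test status, kept all 76 genes and could not move the median. With a pseudocount of 1 added to the FPKM, Peo1 stood at 0.21, Guf1 at 0.22, Nars2 at 0.13, Nsun4 at −0.29 and Ppargc1b at −0.23. Mrpl3, Mrpl10 and Mrpl21 were not called when centred (−0.11, −0.12 and −0.14). Leaving out the 9 genes whose listed locus is shared with another gene, an alternative chosen after seeing the data, kept both counts within 1.5 times. Depth is unknown, so the limit it sets on scarce genes cannot be given.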

Other observations

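Genes for the transcription and upkeep of mitochondrial DNA and nuclear regulators of mitochondrial genes gave calls both ways in the authors' deposited table. Of 14 tested genes of mitochondrial DNA expression, 4 were higher in LPS+Dex (28.6%, against 17.7% of all tested genes) and 1 lower (7.14%, against 25.2%), with a median log2 fold change of 0.096. With the trend on level removed, 2 were higher (14.3%, against 18.4%) and 0 lower. Peo1, the helicase of the mitochondrial replication fork, had 0.566 FPKM in LPS+Dex and 0.350 FPKM in LPS (log2 0.70, implied SE 0.18). Pnpt1, a polynucleotide phosphorylase gene, fell to 44.1 FPKM in LPS+Dex, against 49.0 FPKM in LPS (log2 −0.15, implied SE 0.048), and was not called with the trend on level removed. Tfam, which packages mitochondrial DNA and helps to start its transcription, stood at 4.09 FPKM in LPS+Dex and 4.04 FPKM in LPS (log2 0.020, q = 0.844).

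Of 12 tested regulators, 3 were higher (25%, against 17.7% of all tested genes) and 4 lower (33.3%, against 25.2%) in the deposited calls. With the trend on level removed the counts were the same, where 18.4% of all tested genes were higher and 21.2% lower. Nrf1, the factor whose letters are marked in the promoters, had 6.34 FPKM in LPS+Dex and 6.11 FPKM in LPS (log2 0.053, q = 0.767), and the ETS factor gene Gabpa had 7.25 FPKM in LPS+Dex and 7.44 FPKM in LPS (log2 −0.037, q = 0.738). Yy1 rose to 20.3 FPKM in LPS+Dex, against 18.2 FPKM in LPS (log2 0.16, implied SE 0.053). The coactivator genes went opposite ways, with Pprc1 at 4.90 FPKM in LPS+Dex and 4.21 FPKM in LPS (log2 0.22, implied SE 0.059) and Ppargc1b at 0.382 FPKM in LPS+Dex and 0.626 FPKM in LPS (log2 −0.71, implied SE 0.16). Myc fell to 3.73 FPKM in LPS+Dex, against 4.98 FPKM in LPS (log2 −0.42, implied SE 0.10). The remaining calls were falls of Max (log2 −0.35, implied SE 0.054) and Sp1 (log2 −0.13) and a rise of Esrra (log2 0.15).

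The synthetase gene Lars2 stood far above the rest of its list, at 396 FPKM in LPS+Dex and 447 FPKM in LPS, where the next highest, Iars2, had 8.98 FPKM in LPS+Dex and 9.60 FPKM in LPS. Mrpl46 and Mrps11 are neighbours on chromosome 7, with 40 bases between their listed loci (mm9). Neither was called, with log2 fold changes of −0.045 for Mrpl46 and 0.0011 for Mrps11. The 76 genes lie on 17 chromosomes. Of the 9 whose listed locus is shared with another gene, 1 was called, Mrps6. The deposited table gives each gene of a shared locus its own level, and how reads were divided between such genes was not stated. Mrpl48 shares its locus with Rab6a, at 33.5 FPKM in LPS+Dex and 37.1 FPKM in LPS, and Mrpl41 with Wdr85, at 0.745 FPKM in LPS+Dex and 0.634 FPKM in LPS.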
